A study of Mus musculus with 36 samples.

Results

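The comparison used N2a, a neuroblastoma line of the mouse, into which plasmids for the RNA-guided RNase RfxCas13d and for Rbfox3 crRNA 5 had been brought by transfection. Rbfox3 crRNA 5 is a guide RNA against the transcript of the neuronal splicing factor Rbfox3. The 2 libraries titled RfxCas13d+Rbfox3 crRNA 5 were set against the 2 libraries titled dRfxCas13d+Rbfox3 crRNA 5, which carried the same crRNA with the catalytically dead form of the nuclease. They were chosen by their titles and make up 4 of the 36 libraries of the series. The other 32 libraries form 16 groups of 2, in which either nuclease was given without crRNA, with a crRNA that has no target (NT crRNA), or with Sik3-S crRNA 1 or 8, Map2 crRNA 1 or 3, or Mapt crRNA 4 or 6. In every group, GFP-positive cells of this single cell line were sorted 48 h after transfection and their mRNA was sequenced. In the titles, and in the study, the Rbfox3 crRNA has the number 5, but the transfection field of these 4 libraries gives it the number 6. Whether libraries of the same group stem from separate transfections is not in the labels, so p-values measure only the spread between libraries, which may be technical.

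Cas13 enzymes are RNases of bacterial defence systems that carry the spacer of a crRNA and pair it with RNA. Pairing switches on a nuclease site formed by their HEPN domains, which cuts the bound RNA and, as is known from purified enzymes and bacteria, can also cut unrelated RNA nearby, an effect named collateral activity. The dead form has altered HEPN residues and binds RNA without cutting it. Rbfox3, known to neurobiologists as the antigen NeuN, is a nuclear splicing factor of mature neurons, and its relatives Rbfox1 and Rbfox2 share a closely similar RNA recognition motif that binds UGCAUG. The comparison therefore asks what RfxCas13d did to the transcriptome when its crRNA had a target that these cells scarcely express.

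The spacers are shown because the 2 numbers in the labels stand for different target sites. They are given as DNA letters, 5′ to 3′, in lower case.
Rbfox3 crRNA 5: aaatccatcctgatacacgacc
Rbfox3 crRNA 6: gcagcaacattcaatgaggcca
NT crRNA: tcaccagaagcgtaccatactc
Each spacer is 22 nt long. Among the GENCODE vM21 transcripts (mm10), crRNA 5 was fully complementary to Rbfox3 alone, in coding sequence at chr11:118496369-118496390 on the minus strand, in exon 12 of 15 of the transcript searched and in 6 Rbfox3 transcripts. The crRNA 6 spacer matched the 3′ UTR of Rbfox3 at chr11:118490729-118490750. No gene matched the crRNA 5 spacer with 1, 2 or 3 mismatches, and 3 genes did so with 4.

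The target site of crRNA 5 and the closest sites in the other Rbfox genes are set side by side below because the 3 genes are paralogs. Capitals mark bases of the transcript that do not pair with the spacer.
Rbfox3, coding sequence: ggtcgtgtatcaggatggattt
Rbfox1, chr16:7363865-7363886, plus strand, coding sequence: TgtTgtTtaCcaggatggattt
Rbfox2, chr15:77094469-77094490, minus strand, coding sequence: TgtGgtTtaCcaggaCggattt
Rbfox1 had 4 mismatches and Rbfox2 5, all of them in the 5′ part of the site except the last of Rbfox2. The other 2 genes with 4 mismatches, Crb1-ps and Gm48604, were not among the genes tested.

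The unit of the table is FPKM, fragment counts scaled for exon length and for the fragments of the library. From the steps between low FPKM values, the RfxCas13d+Rbfox3 crRNA 5 libraries held an estimated 11.1 and 13.2 M fragments (M for mega) and the dRfxCas13d+Rbfox3 crRNA 5 libraries 9.93 and 8.95 M, against 8.69 to 16.6 M over all 36 libraries. The 17 neuroblast and sympathetic neuron markers in the table summed to 1810 and 1672 FPKM with RfxCas13d and to 1736 and 1612 with dRfxCas13d, and none was at 0 in all 4 libraries. Of the 8 macrophage markers, Adgre1 and C1qb were at 0 in all 4, and of the 8 glial markers Aqp4, Olig2 and Slc1a3. Hepatocyte markers summed to 1.23 and 0.427 FPKM with RfxCas13d and to 4.24 and 3.75 with dRfxCas13d, but to 533 in replicate 1 of RfxCas13d+NT crRNA against 1.19 in replicate 2. That library stands apart, and results against NT crRNA that touch liver transcripts are given without it as well. The dRfxCas13d libraries with Map2 crRNA 3, Mapt crRNA 4, Mapt crRNA 6 and Rbfox3 crRNA 5 differed from the other 10 dRfxCas13d libraries in the level of several genes. For that reason the results below were also computed with dRfxCas13d+NT crRNA or dRfxCas13d alone as the control.

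Rbfox3 itself was close to undetected. Its FPKM was 0.018 and 0.046 with RfxCas13d, about 1 and 3 fragments, and 0.041 and 0.113 with dRfxCas13d, about 2 and 5 fragments. No library of the 36 held more than 5 Rbfox3 fragments. After scaling, the means were 0.0316 ± 0.0196 (SD, n = 2) and 0.0759 ± 0.0499 (SD, n = 2), the ranges of the groups overlapped, and an exact two-sided permutation test gave p = 0.667, where 0.333 is the smallest value that 2 libraries against 2 can reach. A change of Rbfox3 was not detectable at this depth.

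The paralogs were measured better. Rbfox2, which is broadly expressed, stood at 23.5 and 23.8 FPKM with RfxCas13d and at 28.7 and 29.96 with dRfxCas13d. It fell by 0.30 on the log2 scale (SE 0.05, adjusted p = 1.8e-05), where all log2 fold changes are of FPKM + 1. The 12 RfxCas13d libraries of the other targeting crRNAs held between 18.9 and 22.1 FPKM of Rbfox2, so its level was lower with crRNAs that do not target the family than with Rbfox3 crRNA 5, and the difference from their mean effect was 0.17 (adjusted p = 0.049). Rbfox1, mostly a gene of neurons and muscle, stood at 0.072 and 0.183 FPKM with RfxCas13d and 0.405 and 0.434 with dRfxCas13d, under the filter for testing. In the other RfxCas13d libraries with a targeting crRNA it ranged from 0.077 to 0.228, overlapping the RfxCas13d+Rbfox3 crRNA 5 libraries. Of the 25 tested genes whose closest site had 5 mismatches, 6 rose and 10 fell at an adjusted p under 0.05, where 26.4% of all genes tested rose and 24.8% fell. One of them was called lower, as were 1.33% of all genes. That gene was Kif27, a kinesin-like gene, named here after its values were seen, at 0.110 and 0.176 FPKM with RfxCas13d and 1.17 and 1.71 with dRfxCas13d (log2 fold change -1.07 ± 0.13 (SE), adjusted p = 5.9e-07). Its change differed from the mean of the other targeting crRNAs by -0.07 (adjusted p = 0.83). For the crRNA 6 spacer, 3 tested genes had a site with 4 mismatches, of which Abca1 (-0.35) and Zw10 (-0.20) fell and Hcfc1 (0.00) did not pass the test. Of 29 tested genes with 5 mismatches to it, 9 rose, 6 fell and Ly6g6c was called lower (-1.26).

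Of the 13293 genes tested, 229 were called higher with RfxCas13d and 177 lower, 3.05% of the genes in all, where a gene was called if its adjusted p was under 0.05 and it changed at least 2-fold. These are 1.72% and 1.33% of the genes. Without the fold threshold, 3510 genes (26.4%) rose and 3301 (24.8%) fell, and the median log2 fold change of all genes was 0.01. In all 406 called genes the RfxCas13d libraries lay on 1 side of both dRfxCas13d libraries, which was also the case for 37.5% of all genes in the upward and 34.6% in the downward direction. Protein-coding genes gave 136 higher (1.13%) and 150 lower (1.25%) calls of 12036. Small nucleolar RNAs (snoRNAs) gave 35 higher and 1 lower call of 114, so 30.7% were higher. MicroRNA hairpin entries gave 27 higher and 6 lower calls of 389, but in 15 of the 27 both dRfxCas13d libraries were at 0 and the RfxCas13d values rest on few fragments. Over the 395 hairpins named by symbol, 29 were higher and 6 lower, but the split was 14 and 16 without dRfxCas13d+Rbfox3 crRNA 5 replicate 1, 15 and 13 without its replicate 2, 22 and 2 without RfxCas13d+Rbfox3 crRNA 5 replicate 1, and 18 and 10 with the trend on exon length removed, so the hairpins gave no stable direction. With dRfxCas13d+NT crRNA as the control, 192 genes were higher and 202 lower, of which 128 and 129 were also called against dRfxCas13d+Rbfox3 crRNA 5. With dRfxCas13d alone as the control the counts were 162 and 125, with 113 and 87 shared.

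**Figure D1:**
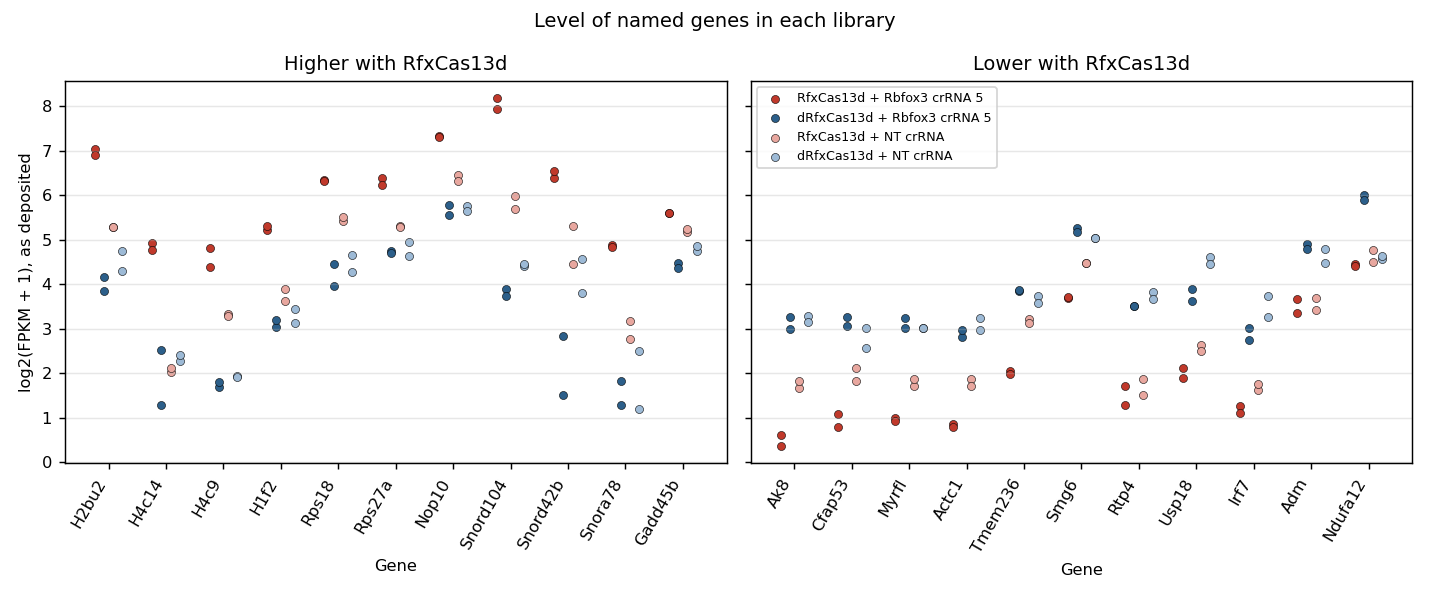
The level of 11 genes called higher and 11 called lower is shown as log2(FPKM + 1) of each library (1 point per library) with Rbfox3 crRNA 5 and with NT crRNA. The H2bu2 points of RfxCas13d+Rbfox3 crRNA 5 stand for 131 and 118 FPKM and those of dRfxCas13d+Rbfox3 crRNA 5 for 16.8 and 13.3, whereas for Ndufa12 the dRfxCas13d+Rbfox3 crRNA 5 points lie above the other 3 groups.

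Histone genes led the protein-coding increases. Replication-dependent histones package new DNA in S phase, and their mRNAs as a rule end in a stem-loop instead of a poly(A) tail. Of 56 tested, 28 were called higher, 40 rose at an adjusted p under 0.05 and none was called lower, with a median log2 fold change of 0.99 against 0.01 for all genes. By class, 13 of 13 H4 genes were called higher, 3 of 5 H1, 5 of 13 H2A, 3 of 15 H2B and 4 of 10 H3. The H4 median was 1.78 and the H2B median 0.58. All 13 H4 genes were also called with either of the other dRfxCas13d controls, and of the whole list 31 were called against dRfxCas13d+NT crRNA and 32 against dRfxCas13d alone. Of the 56 genes, 48 lie on chromosome 13, where the main histone cluster is.

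H2bu2, an H2B gene on chromosome 11, showed the largest increase of a protein-coding gene on the log2(FPKM + 1) scale. It stood at 131 and 118 FPKM with RfxCas13d and at 16.8 and 13.3 with dRfxCas13d (log2 fold change 2.98 ± 0.18 (SE), adjusted p = 3.3e-11). In the 16 other dRfxCas13d libraries it ranged from 13.9 to 25.7, and in the 12 RfxCas13d libraries with other targeting crRNAs from 88.2 to 170. H4c14 stood at 29.2 and 26.3 FPKM against 4.72 and 1.45 (2.93 ± 0.33, adjusted p = 2.2e-07), and H4c9 at 26.9 and 19.8 against 2.25 and 2.49 (2.83 ± 0.25, adjusted p = 6.5e-09). H1f2, a linker histone, which binds DNA between nucleosomes, stood at 36.1 and 38.8 FPKM against 7.22 and 8.17 (2.15 ± 0.16, adjusted p = 6.8e-10). H4c2 was measured at 4.19 and 3.04 FPKM with RfxCas13d and was listed at 0 in both dRfxCas13d libraries, so no fold is given. Further entries among the 10 largest increases were the histone genes H3c11 (2.41 ± 0.32), H4c11 (2.31 ± 0.37) and Hist1h4m (2.07 ± 0.38), and Gm5617 at 10.1 and 12.2 FPKM against 1.75 and 0.706 (2.47 ± 0.32). Near-identical copies within H4 and the other classes may share reads, so the split of the signal among members is uncertain. Histone variants, which are made throughout the cell cycle, had a median of 0.50 over 9 genes, with H1f0 at 535 and 511 FPKM against 364 and 373.

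The 3′ stem-loop is shown for 4 of these genes because it is the part of the mRNA in which they differ from most other mRNAs. Capitals mark the stem-loop motif, in the transcript's strand, and 5 bases on each side are given in lower case.
H2bu2, chr11:58949349-58949364, plus strand: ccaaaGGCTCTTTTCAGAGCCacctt
H1f2, chr13:23739512-23739527, plus strand: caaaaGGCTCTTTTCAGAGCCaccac
H4c14, chr3:96262939-96262954, minus strand: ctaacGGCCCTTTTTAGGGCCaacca
H4c9, chr13:22040966-22040981, minus strand: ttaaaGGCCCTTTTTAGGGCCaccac
The search used GGCTCTTTTNAGAGCC and GGCCCTTTTNAGGGCC in the sense strand of the GENCODE transcripts, whole length. The 16-base motif was found in 33 of the 56 listed histones (58.9%) and in 36 of 13185 tested genes with a transcript (0.273%). The GGCCC form was in 9 histones, all of them H4 genes, and all 9 were called higher. Of the 24 histones with the GGCTC form, none of them an H4 gene, 8 were called higher. Of the 33 histones with the motif 17 were called higher, and of all 56 the number was 28. In the H4 class all 13 were higher, the 9 with the motif among them, and in the H3 class 1 of 6 with the motif was higher against 4 of all 10. In the printed genes the motif lay 169 (H2bu2), 840 (H1f2), 1257 (H4c14) and 330 (H4c9) bases before the transcript end, so these models extend past the stem-loop. The transcript used was the shortest annotated one with the motif.

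snoRNAs and other short RNAs without a poly(A) tail were the second group of increases. snoRNAs guide the modification of ribosomal and spliceosomal RNA, box C/D members methylation and box H/ACA members pseudouridylation. Of 65 box C/D entries, 20 were called higher and 1 lower (median log2 fold change 0.95), and of 31 box H/ACA entries 12 were called higher and none lower (1.34). A list of short spliceosomal and polymerase III RNAs had 8 tested entries, of which 4 were called higher. They were Rnu11 and Rnu12, the U11 and U12 RNAs of the minor spliceosome, Vaultrc5, a vault RNA, and Rnu73b. Rnu73b is a snoRNA, although it was on this list. Against dRfxCas13d+NT crRNA, 16 box C/D and 17 box H/ACA entries were called higher, and against dRfxCas13d alone 13 and 6. The median of the spliceosomal and polymerase III list was 1.78 with the matched control. Against dRfxCas13d+NT crRNA it was 0.88, with 4 called higher. Against dRfxCas13d alone it was 0.23, with 3 called higher and 1 lower, so the size of this change depended on the control.

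The box C/D snoRNAs with the largest changes are printed with the core of box C and box D in capitals, in the sense strand.
Snord104, chr11:106500993-106501062, plus strand: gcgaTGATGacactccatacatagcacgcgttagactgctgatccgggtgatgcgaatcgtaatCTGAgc
Snord42b, chr11:78183056-78183124, minus strand, within Rpl23a: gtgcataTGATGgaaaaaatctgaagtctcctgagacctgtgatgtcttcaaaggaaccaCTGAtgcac
Snord2, chr16:23108953-23109021, plus strand, within Eif4a2: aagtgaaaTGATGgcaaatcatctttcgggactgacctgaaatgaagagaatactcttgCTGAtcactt
Snord104 stood at 288 and 242 FPKM with RfxCas13d and at 13.8 and 12.2 with dRfxCas13d (log2 fold change 4.24 ± 0.28 (SE), adjusted p = 8.5e-11). It lies in no tested gene of its strand. In the 16 other dRfxCas13d libraries it ranged from 7.86 to 25.9 FPKM, and in the other 12 RfxCas13d libraries with a targeting crRNA from 142 to 460. Snord42b stood at 83.2 and 92.5 FPKM against 1.83 and 6.09 (4.30 ± 0.40, adjusted p = 1.1e-08), and its host Rpl23a at 53.3 and 46.4 against 33.3 and 29.0. The log2 fold change of Snord42b was 1.59 against dRfxCas13d alone and 2.28 against dRfxCas13d+NT crRNA, over 1.5 times smaller.

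Snord2 shows how much the choice of control can matter. It had the largest log2 fold change of FPKM + 1 of any called gene, 4.67 ± 0.60 (SE, adjusted p = 1.3e-06), from 55.4 and 68.1 FPKM with RfxCas13d and 0 and 4.93 with dRfxCas13d, where 1 fragment is worth about 1.54 FPKM in a dRfxCas13d library. Against dRfxCas13d+NT crRNA the change was 0.13 and against dRfxCas13d alone -0.16, because those libraries held 52.4 and 60.3, and 72.9 and 65.0 FPKM. Its host Eif4a2, a translation initiation helicase, stood at 75.4 and 76.7 FPKM against 67.7 and 69.3.

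Among H/ACA members, Snora78 stood at 28.6 and 27.6 FPKM against 2.57 and 1.42 (3.30 ± 0.46, adjusted p = 3.5e-06) and Snora70 at 43.8 and 59.4 against 5.47 and 7.79 (2.78 ± 0.38). Rnu11 was measured at 9.97 and 9.14 FPKM with RfxCas13d and was listed at 0 in both dRfxCas13d libraries. Rnu12 stood at 15.6 and 21.8 FPKM against 0.671 and 2.98 (2.91 ± 0.51, adjusted p = 5.2e-05), and it was also higher with NT crRNA, at 14.1 and 9.72 against 0.698 and 0. Most mouse snoRNAs are cut from introns of other genes, and 32 of the 35 called higher lay within a tested gene of the same strand. Only 14 lay in introns alone, and Snord42b and Snord2 overlapped an annotated exon of their hosts. The 27 host genes had a median log2 fold change of 0.40 against 1.95 for the snoRNAs. The snoRNAs had been selected for an at least 2-fold change and the hosts had not, so these medians are not a fair comparison. For the 78 snoRNAs that were not called the median was 0.67, against 0.12 for their 56 hosts. Of the 27 hosts of snoRNAs called higher, 17 rose and 2 fell at an adjusted p under 0.05, and 2 were called higher (Rpl12 and Rpl10). The strand setting of the counting is not given in the sources used here, and reads of a snoRNA that overlaps a host exon cannot be told apart from those of the host. The non-coding host Snhg1 stood at 626 and 579 FPKM against 322 and 325, Gas5 at 228 and 216 against 128 and 114, and Snhg20 at 65.1 and 57.6 against 25.0 and 27.2. Nop10, a small protein of the H/ACA particle, rose from 46.3 and 54.3 FPKM to 161 and 157 (1.64 ± 0.09, adjusted p = 5.3e-12), and it was the only 1 of the 10 core proteins of snoRNA particles that was called.

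Short mRNAs for ribosomes and mitochondria rose with them. Of 48 large-subunit ribosomal proteins 11 were called higher, 34 rose and 3 fell at an adjusted p under 0.05, with a median of 0.44. For the 33 small-subunit proteins the counts were 4, 20 and 6, with a median of 0.30. Rps18 stood at 80.0 and 78.7 FPKM against 14.6 and 20.9 (2.12 ± 0.15), Rps27a, a ubiquitin fusion, at 82.6 and 74.4 against 26.0 and 25.2 (1.58 ± 0.11), and Rpl31 at 33.1 and 31.2 against 8.52 and 12.6 (1.54 ± 0.13). Rpl9 stood at 47.0 and 46.5 against 15.3 and 20.03 (1.37 ± 0.11). With either other dRfxCas13d control the log2 fold change of Rpl9 was 0.90 or 0.91 and that of Rpl12, 1.04 here, was 0.40 or 0.32, both under the fold threshold. Ribosomal protein genes have many processed pseudogenes with which they may share reads. Of 95 respiratory chain genes, 59 rose and 8 fell, with 4 called higher and 1 lower (median 0.38). Against dRfxCas13d+NT crRNA and dRfxCas13d alone none was called higher (45 rose in both), with medians of 0.19 and 0.21, and without dRfxCas13d+Rbfox3 crRNA 5 replicate 2 the higher calls were 8. Cox6b1, a subunit of cytochrome c oxidase, stood at 659 and 612 FPKM against 332 and 353 (0.89 ± 0.06). The ATP synthase subunits Atp5e (241 and 273 against 74.2 and 95.2) and Atp5mpl (112 and 100.3 against 34.0 and 42.3) were called higher. Their log2 fold changes of 1.60 and 1.46 became 0.82 and 0.99 against dRfxCas13d+NT crRNA and 0.83 and 0.98 against dRfxCas13d alone, under the fold threshold. Of 77 mitochondrial ribosomal proteins 38 rose and 7 fell (median 0.20), and of 37 proteasome subunits 22 rose and 4 fell (0.18).

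**Figure D2:**
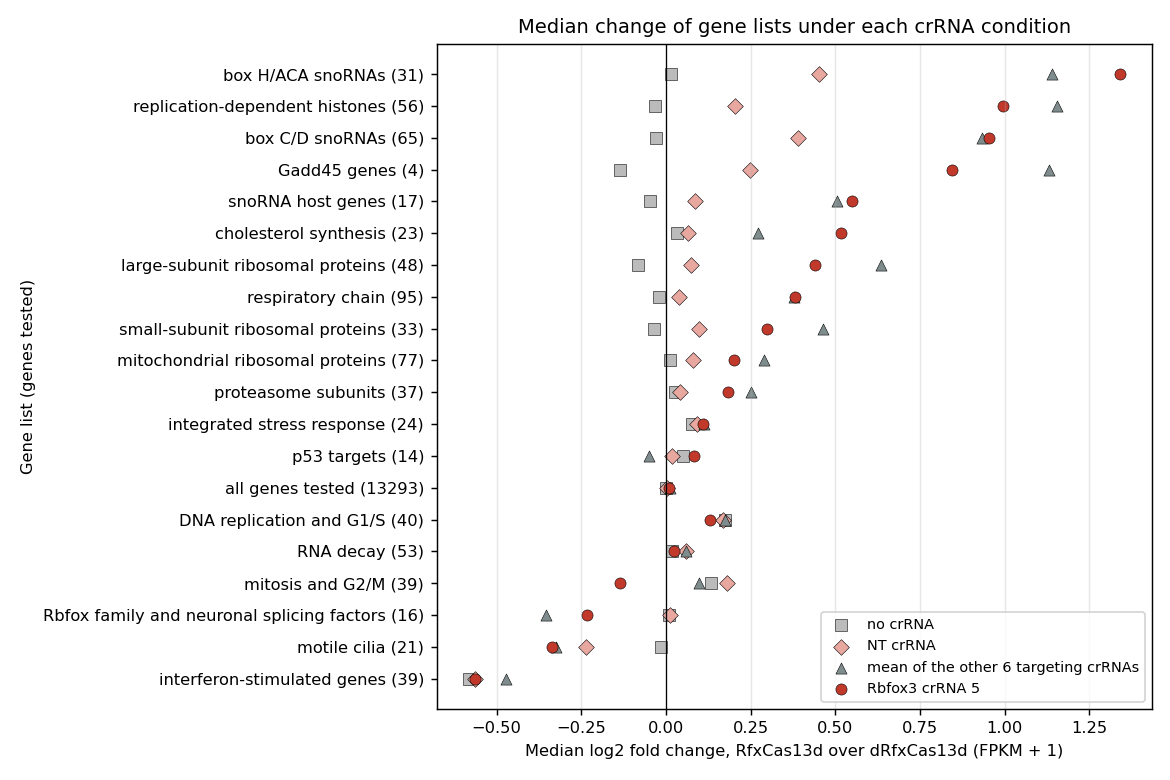
Each point is the median log2 fold change of RfxCas13d over dRfxCas13d of a gene list (genes tested in brackets) with Rbfox3 crRNA 5, as the mean of the other 6 targeting crRNAs, with NT crRNA and without crRNA. Replication-dependent histones sit at 0.99 with Rbfox3 crRNA 5, 1.15 with the other 6 and 0.20 with NT crRNA, while the interferon-stimulated genes sit at -0.56, -0.47 and -0.56 in the same order and at -0.58 without crRNA.

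The lowered genes were mostly of low level. Among protein-coding genes split into 5 equal bins of the mean FPKM of the 4 libraries, the lowest bin held 89 lower calls and 26 higher ones, and the highest bin 2 and 32. Ak8, an adenylate kinase of cilia, had the largest decrease of a protein-coding gene on the log2(FPKM + 1) scale, from 6.93 and 8.61 FPKM with dRfxCas13d to 0.286 and 0.532 with RfxCas13d (log2 fold change -2.63 ± 0.17 (SE), adjusted p = 6.9e-11). In the other 16 dRfxCas13d libraries it ranged from 3.14 to 9.41 FPKM. Cfap53, a protein of motile cilia, stood at 0.724 and 1.12 against 8.60 and 7.37 (-2.22 ± 0.19), and Myrfl, a relative of the myelin regulator Myrf, at 0.980 and 0.902 against 8.44 and 7.14 (-2.17 ± 0.15). Actc1, cardiac alpha-actin, stood at 0.800 and 0.728 against 6.08 and 6.81 (-2.07 ± 0.15). Tmem236, a membrane protein, fell from 13.3 and 13.6 FPKM to 3.12 and 2.93 (-1.84 ± 0.08, adjusted p = 3.0e-13). Lypd6b (-1.95 ± 0.16) and Gabrr2, a GABA receptor subunit (-1.80 ± 0.15), were likewise low genes that fell.

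Among better expressed genes, Smg6, an endonuclease of nonsense-mediated decay, had the smallest p of its list, at 11.9 and 12.1 FPKM against 37.4 and 35.0 (-1.51 ± 0.05, adjusted p = 7.3e-16). Of the 53 genes of RNA decay it was the only lower call, and Exosc6, an exosome subunit with 29.6 and 26.1 against 11.4 and 13.4 FPKM, the only higher one. Adm, adrenomedullin, stood at 9.14 and 11.8 FPKM against 28.7 and 26.8 (-1.34 ± 0.12), and it was the only call among 24 glycolysis genes and hypoxia targets. Of 21 genes of motile cilia, 4 were called lower (Ak8, Cfap53, Drc1 and Ak7) and 1 higher (Rsph9, at 6.13 and 5.59 against 2.65 and 1.88 FPKM), 9 fell at an adjusted p under 0.05, and the median was -0.34, or -0.20 without RfxCas13d+Rbfox3 crRNA 5 replicate 2. Against dRfxCas13d alone 2 were called lower, since Drc1 and Ak7 gave -0.99 and -0.78, and Ak7 gave -0.93 against dRfxCas13d+NT crRNA. Rsph9 was not called with either of these controls (0.64 with NT crRNA, 0.21 alone) or without dRfxCas13d+Rbfox3 crRNA 5 replicate 2. Serpinc1, the plasma protein antithrombin, stood at 0.664 and 0.492 against 5.22 and 6.31 (-2.09 ± 0.28), and Lyz2, lysozyme of myeloid cells, at 0.255 and 0.144 against 2.29 and 3.06 (-1.60 ± 0.24). The macrophage markers summed to 3.29 and 3.80 FPKM with RfxCas13d and 4.78 and 5.72 with dRfxCas13d, and the part of these and of the hepatocyte markers in the 2 results was not tested. Gm15517 was 1.92 lower on the log2 scale, but rested on 0 and 2.42 against 5.49 and 6.60 FPKM, and was no longer called in 5 of the alternatives.

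Outside the protein-coding genes, pseudogenes gave 8 lower calls of 131 (6.11%), long non-coding RNAs 9 of 512 (1.76%) and hairpins 6 of 389 (1.54%), against 1.25% of protein-coding genes. Gm6654, a processed pseudogene entry, stood at 7.17 and 6.55 FPKM against 33.3 and 23.2 (-1.87 ± 0.18, adjusted p = 1.5e-08), and against dRfxCas13d+NT crRNA the change was -0.07. Gm51283, for which no annotation was matched, stood at 0 and 5.33 against 15.9 and 23.5 FPKM (-3.01 ± 0.76), and the hairpin entries Mir568 and Mir7673 at 3.24 and 4.57 against 12.1 and 21.5, and at 0 and 2.37 against 6.30 and 8.73. Mir3470b was at 0 in both RfxCas13d libraries and at 3.20 and 1.77 with dRfxCas13d.

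Interferon-stimulated genes were lower with RfxCas13d. These genes are switched on by type I interferon and by sensors of foreign RNA or DNA. Of 39 tested, 29 fell and 1 rose at an adjusted p under 0.05, 9 were called lower and none higher, with a median of -0.56. Usp18, the protease that removes ISG15, stood at 2.74 and 3.34 FPKM against 11.3 and 13.7 (-1.74 ± 0.13, adjusted p = 4.6e-10). Rtp4, a chaperone of membrane receptors, stood at 2.28 and 1.45 against 10.3 and 10.4 (adjusted p = 5.4e-10), and Irf7, a transcription factor of the interferon response, at 1.40 and 1.14 against 5.69 and 7.15 (-1.70 ± 0.16). Ddx58, which encodes the RNA sensor RIG-I, stood at 4.78 and 5.58 against 13.4 and 12.6 (-1.18 ± 0.08) and Eif2ak2, the RNA-activated kinase PKR, at 15.5 and 15.9 against 33.1 and 32.2 (-1.01 ± 0.06). Ifit1 at 3.06 and 3.83 against 4.89 and 4.45 FPKM and Isg15 at 41.1 and 41.3 against 38.4 and 44.6 did not pass the test. The median was -0.56 with NT crRNA and -0.58 without crRNA, each against its own dRfxCas13d libraries, and no member differed from its change with NT crRNA by a call (5 differences were positive and 1 negative at an adjusted p under 0.05). For Usp18 that difference was 0.24 (adjusted p = 0.38). Within the dRfxCas13d libraries, 12 members were lower with Rbfox3 crRNA 5 than with NT crRNA and none higher at an adjusted p under 0.05 (median -0.21). With dRfxCas13d+NT crRNA or dRfxCas13d alone as the control, 16 members were called lower in place of 9, with medians of -0.85 and -0.80, while Eif2ak2 gave -0.94 against dRfxCas13d alone, under the fold threshold.

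Few stress genes were called, although many passed the test without the fold threshold. Gadd45 proteins bind stress and cell cycle kinases. The 3 family members tested rose, with Gadd45b at 47.1 and 47.6 FPKM against 21.3 and 19.6 (1.17 ± 0.08, adjusted p = 1.9e-10) and Gadd45g at 172 and 158 against 84.8 and 80.1 (0.99 ± 0.05), and Gadd45a at 26.4 and 22.1 against 14.6 and 14.4 (0.70 ± 0.10). The list as plotted holds Gadd45gip1 as a further gene, which encodes a protein of the mitochondrial ribosome. Gadd45b kept its direction with the other dRfxCas13d controls at 0.80 and 0.68, under the fold threshold. Among 26 immediate early genes, 11 rose and 8 fell, with Ier5 called higher (30.7 and 34.7 against 14.2 and 16.5), Junb at 192 and 182 against 110 and 113 (0.74 ± 0.05) and Klf6 at 22.6 and 21.6 against 39.7 and 38.01 (-0.79 ± 0.06). None of the 24 targets of the integrated stress response, 14 p53 targets or 26 chaperones was called in either direction. Without the fold threshold 12, 6 and 13 of them rose and 6, 3 and 4 fell, in the same order. Of all genes tested 26.4% rose and 24.8% fell. Ddit3, the stress factor CHOP, was lower, at 141 and 142 FPKM against 229.5 and 250.2 (-0.76 ± 0.04), and Mdm2, a p53 target, was lower as well, at 66.0 and 67.5 against 94.9 and 94.5 (-0.50 ± 0.04).

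Genes of the cholesterol pathway rose in small steps. Of 23 tested, 22 rose and 1 fell at an adjusted p under 0.05, and none reached the fold threshold, with a median of 0.52. Dhcr7, a reductase of the last steps of the pathway, stood at 24.6 and 23.99 FPKM against 14.2 and 12.49 (0.82 ± 0.07, adjusted p = 3.9e-09) and Sqle, squalene epoxidase, at 66.0 and 62.8 against 41.0 and 45.7 (0.56 ± 0.05). The median was 0.27 with dRfxCas13d+NT crRNA as the control (19 rose, 1 fell) and 0.12 with dRfxCas13d alone (6 rose, 3 fell), so the size of this change depended on the dRfxCas13d libraries used. Cell cycle genes showed no call. Of 40 genes of DNA replication and G1/S, 17 rose and 12 fell, and of 39 genes of mitosis and G2/M, 7 rose and 18 fell (median -0.14), with Ndc80, a kinetochore protein, at 30.8 and 30.5 FPKM against 44.8 and 44.8. With dRfxCas13d alone as the control, 18 of the G2/M genes rose and 5 fell, so the direction of that list is not stable.

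The neuronal lists below held 1 call at most, where 3.05% of all genes tested were called, 26.4% rose and 24.8% fell. Of 27 synaptic genes, 6 rose and 8 fell with 1 called lower (Gabrr2, 3.7% of the list). Of 20 voltage-gated channels 2 rose and 10 fell with 1 called lower (5%). Of 16 Rbfox family and neuronal splicing genes, 2 rose and 10 fell (median -0.23) without a call, among them Ptbp2, the neuronal splicing repressor, at 30.1 and 28.9 FPKM against 44.7 and 40.9, and Celf4 at 14.5 and 12.2 against 25.3 and 19.5. Of 29 genes of neuronal microtubules and cytoskeleton 9 rose and 12 fell, with Mapt, which encodes tau, at 20.5 and 21.2 against 34.8 and 32.9 (-0.67 ± 0.06), Map2 at 7.37 and 8.08 against 11.4 and 10.3 (-0.44 ± 0.07) and Ank2 at 5.46 and 5.16 against 10.9 and 10.5 (-0.89 ± 0.07). Sik3, a target of 2 other crRNAs of the study, stood at 11.1 and 12.1 against 20.2 and 20.1 (-0.75 ± 0.08). None of these 4 genes matched the spacer of Rbfox3 crRNA 5 or 6 within 4 mismatches.

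The length of a gene went with its change. Exon length is the number of bases in the union of a gene's annotated exons. Its median was 1370 nt in the 136 protein-coding genes called higher, 2544 nt in the 150 called lower and 4339 nt in all 12036. A single exon block was found in 43.4% of the former, 2% of the latter and 2.76% of all. From the shortest to the longest of 5 equal bins, the median log2 fold change went from 0.18 over 0.12, 0.04 and -0.03 to -0.19, and the calls from 109 higher and 71 lower to 0 higher and 18 lower. With NT crRNA the medians of the outer bins were 0.06 and -0.08, with the mean of the other 6 targeting crRNAs 0.22 and -0.24, and without crRNA 0.01 and -0.03. GC content showed a slope of similar size in the opposite direction, with medians from -0.13 in the bin of lowest to 0.20 in that of highest GC. When the trend on exon length was removed, 147 genes were called higher and 244 lower, in place of 229 and 177, and 25 of the 56 histones and 12 of the 13 H4 genes were still called higher. The large-subunit ribosomal proteins went from 11 to 6 higher calls (median 0.28), the small-subunit ones from 4 to 3 with 1 lower (median 0.16), the respiratory chain to 2 higher and 2 lower (median 0.24), and Gadd45b was no longer called. Length and GC content were not tested against each other.

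**Figure D3:**
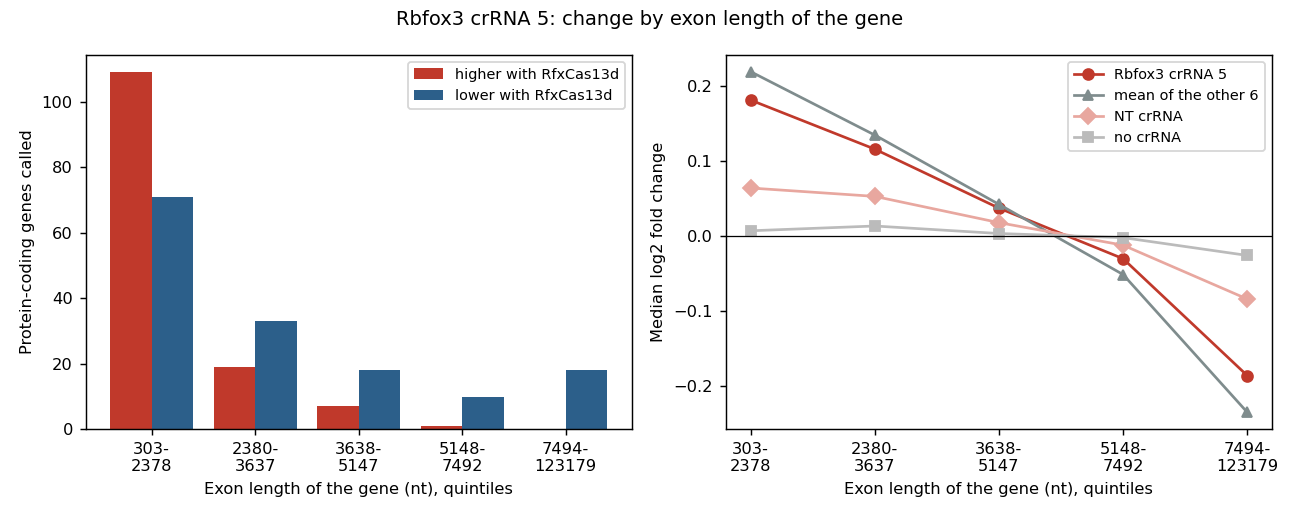
Left, protein-coding genes called higher or lower with Rbfox3 crRNA 5 in 5 bins of exon length (nt); right, the median log2 fold change of each bin under 4 crRNA conditions. Higher calls drop from 109 in the shortest bin to 0 in the longest, and the medians run from 0.18 to -0.19 with Rbfox3 crRNA 5 and from 0.06 to -0.08 with NT crRNA.

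Most of the changes were not particular to Rbfox3 crRNA 5. The other crRNA conditions have their own RfxCas13d and dRfxCas13d libraries, so their contrasts share no library with those described here. All were fitted together, so they do share the estimated spread of each gene. The dRfxCas13d libraries with Map2 crRNA 3, Mapt crRNA 4 and Mapt crRNA 6 differed from the others in several genes, as did those with Rbfox3 crRNA 5. The part of this division in the shared calls and correlations was not tested. Of the 229 genes called higher, 55 were called higher with each of the other 6 targeting crRNAs, 33 with none of them, and 193 had a positive change with all 6. Of the 177 called lower, 24 were called with all 6 and 48 with none, and 160 had a negative change with all 6. How many of all tested genes kept the same sign with all 6 was not counted, so these counts have no background. Of the 229 genes 15 (6.55%) and of the 177 genes 30 (16.9%) were called with NT crRNA. That comparison gave few calls, 27 higher and 48 lower, of which these were 55.6% and 62.5%. Without crRNA 1 and 9 were shared, of 6 higher and 17 lower calls. Single targeting crRNAs gave 116 to 310 higher and 75 to 172 lower calls. Across the 13293 genes, the log2 fold changes correlated with those of single targeting crRNAs at a Pearson r of 0.75 to 0.79, with NT crRNA at 0.50 and without crRNA at 0.09. Genes are not independent replicates, and these values are descriptions. The median change of the 229 genes, which were chosen by their change here, was 1.30 with Rbfox3 crRNA 5, 1.11 with the other 6 and 0.35 with NT crRNA, and that of the 177 genes was -1.21, -0.88 and -0.56.

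**Figure D4:**
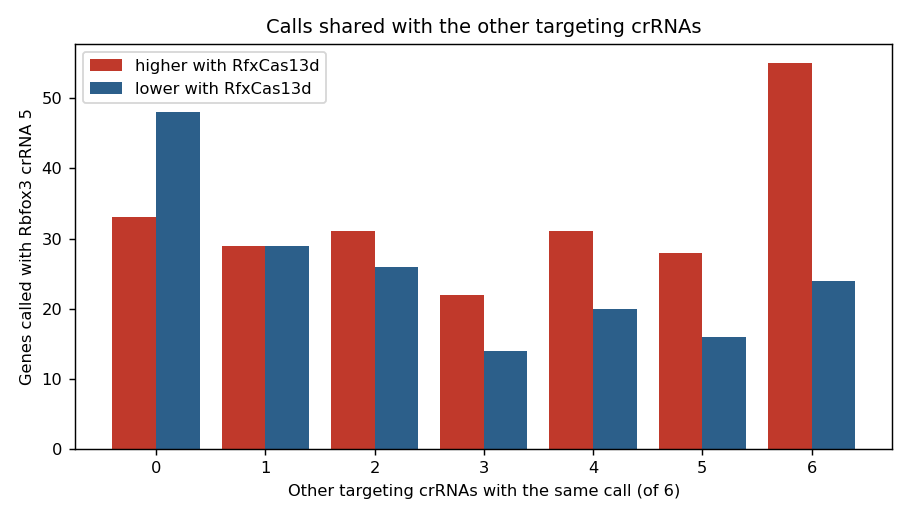
Bars count the genes called with Rbfox3 crRNA 5 by the number of the other 6 targeting crRNAs that gave the same call. The largest bar of the genes called higher is at 6 (55 genes) and that of the genes called lower at 0 (48 genes).

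The difference between crRNAs was tested as an interaction. Against NT crRNA, the change with Rbfox3 crRNA 5 was larger (more positive) by a call for 91 genes (0.685%) and more negative for 58 (0.436%), 1.12% of the genes together. Without the fold threshold the counts were 1443 (10.9%) and 1337 (10.1%). The set of positive differences included H4c14 (3.19, adjusted p = 8.8e-05), Snord104 (2.84, adjusted p = 4.7e-05) and H2bu2 (2.21, adjusted p = 8.4e-06), and 16 of the 56 histones in all. Negative differences included Tmem236 (-1.36, adjusted p = 8.4e-08), Cfap53 (-1.40), Ak8 (-1.16) and Ndufa12 (-1.55, adjusted p = 4.2e-06). Ndufa12 also differed between the dRfxCas13d libraries with these crRNAs, as described below. The difference of -2.48 for Hp, the plasma protein haptoglobin, and of -1.88 for Serpinc1 became -0.62 (adjusted p = 0.24) and -1.06 (adjusted p = 0.0024) without the RfxCas13d+NT crRNA library with liver transcripts.

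Against the mean change of the other 6 targeting crRNAs, 16 genes differed by a call, 9 in the positive (0.0677%) and 7 in the negative direction (0.0527%), 0.12% of the genes together. Without the fold threshold, 400 (3.01%) and 443 (3.33%) differed. The positive differences were led by Snord2 (3.02) and Snord42b (1.82), whose values in the dRfxCas13d libraries are described above, and by the hairpin entries Mir7232, Mir7-1 and Mir669i. Mir7-1 stood at 16.6 and 16.9 FPKM against 4.66 and 5.17. Mapt was among the 9 as well (1.10, adjusted p = 1.0e-09), which follows from Mapt crRNA 4 and 6 being among the other 6. Snord67 (-3.20), Mir3473a, 1700013F07Rik (-1.31), Upk1a (-1.25), Gm7429 (-1.14) and Ndufa12 (-1.08) were the named negative differences. Snord67 and Mir3473a were at 0 in both RfxCas13d+Rbfox3 crRNA 5 libraries. With dRfxCas13d+Rbfox3 crRNA 5 they stood at 4.11 and 1.14, and at 1.275 and 0.471 FPKM, so their values rest on few fragments. Gm7429 and Ndufa12 divided the dRfxCas13d libraries, as described below. Upk1a, a uroplakin of bladder epithelium, stood at 2.06 and 1.39 FPKM against 5.39 and 5.47, and in the other RfxCas13d libraries with a targeting crRNA at 2.48 to 4.62, all above the RfxCas13d+Rbfox3 crRNA 5 libraries. Adm differed by -0.78 (adjusted p = 7.2e-04), at 11.97 to 17.7 FPKM in those 12 libraries against 9.14 and 11.76 here, again without overlap. For Upk1a the dRfxCas13d+Rbfox3 crRNA 5 libraries also lay above all other dRfxCas13d libraries, which reached 4.55 FPKM. The same held for 1700013F07Rik, at 5.955 and 4.905 FPKM against at most 4.778. The part of these control levels in the 2 differences was not tested. The count of 16 was 10 without dRfxCas13d+Rbfox3 crRNA 5 replicate 1 and 9 without RfxCas13d+Rbfox3 crRNA 5 replicate 2. When each crRNA counted as 1 replicate, no gene passed (limma, 1142 genes at an unadjusted p under 0.05).

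The dRfxCas13d libraries also differed among themselves. dRfxCas13d+Rbfox3 crRNA 5 against dRfxCas13d+NT crRNA gave 10 higher (0.0752%) and 9 lower (0.0677%) calls, 0.143% of the genes together, and 820 (6.17%) and 1025 (7.71%) without the fold threshold. This comparison shares its dRfxCas13d+Rbfox3 crRNA 5 libraries with the one above. The total of 19 was 39 without dRfxCas13d+Rbfox3 crRNA 5 replicate 2, 30 or 29 without dRfxCas13d+NT crRNA replicate 1 or 2, and 0 when limma was fitted on these 4 libraries alone (2732 genes at an unadjusted p under 0.05). Ndufa12, a subunit of respiratory complex I, stood at 62.8 and 58.3 FPKM in dRfxCas13d+Rbfox3 crRNA 5 and at 22.8 and 23.7 in dRfxCas13d+NT crRNA (1.34, adjusted p = 1.4e-06), and the RfxCas13d+Rbfox3 crRNA 5 libraries at 20.9 and 20.1. Across the series its level was 48.0 to 67.3 FPKM in the dRfxCas13d libraries with Map2 crRNA 3, Mapt crRNA 4 and Mapt crRNA 6, 22.1 to 29.4 in the other 10 dRfxCas13d libraries, and 20.1 to 31.9 in the 18 RfxCas13d libraries. The change of -1.52 ± 0.12 (SE) with RfxCas13d given by the matched control was thus -0.17 against dRfxCas13d+NT crRNA and -0.11 against dRfxCas13d alone.

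Other genes had the same division of the dRfxCas13d libraries. Rps6, a small-subunit ribosomal protein, stood at 38.9 and 30.3 FPKM in dRfxCas13d+Rbfox3 crRNA 5, at 29.2 to 35.9 in the 6 libraries named, at 13.7 to 18.3 in the other 10 and at 13.3 to 22.1 in the RfxCas13d libraries. Gm6654 stood at 33.3 and 23.2, 22.7 to 33.4, 6.71 to 10.1 and 3.54 to 8.33 FPKM in the same order, and Gm7429 at 12.7 and 8.72, 8.20 to 13.1, 2.04 to 6.00 and 2.37 to 6.33. Snord2 went the other way, at 0 and 4.93, 3.38 to 11.4, 48.7 to 81.0 and 22.3 to 94.5 FPKM. Rps10 was high in the same dRfxCas13d libraries (89.1 and 88.7, and 77.6 to 95.3, against 33.9 to 46.1), but reached 84.5 with RfxCas13d. The labels name no batch that divides the dRfxCas13d libraries in this way. These libraries were grouped after their values were seen, no test was made between them, and the part of this division in the other results was not tested beyond the 2 alternative controls. H2bu2, Snord104, Ak8, Smg6 and Usp18 gave 2.85, 3.52, -2.51, -1.28 and -2.38 against dRfxCas13d alone and 2.46, 3.62, -2.72, -1.34 and -2.53 against dRfxCas13d+NT crRNA, and stayed called under every alternative that tested them. Ak8 was not tested when the mean FPKM had to reach 5.

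**Figure D5:**
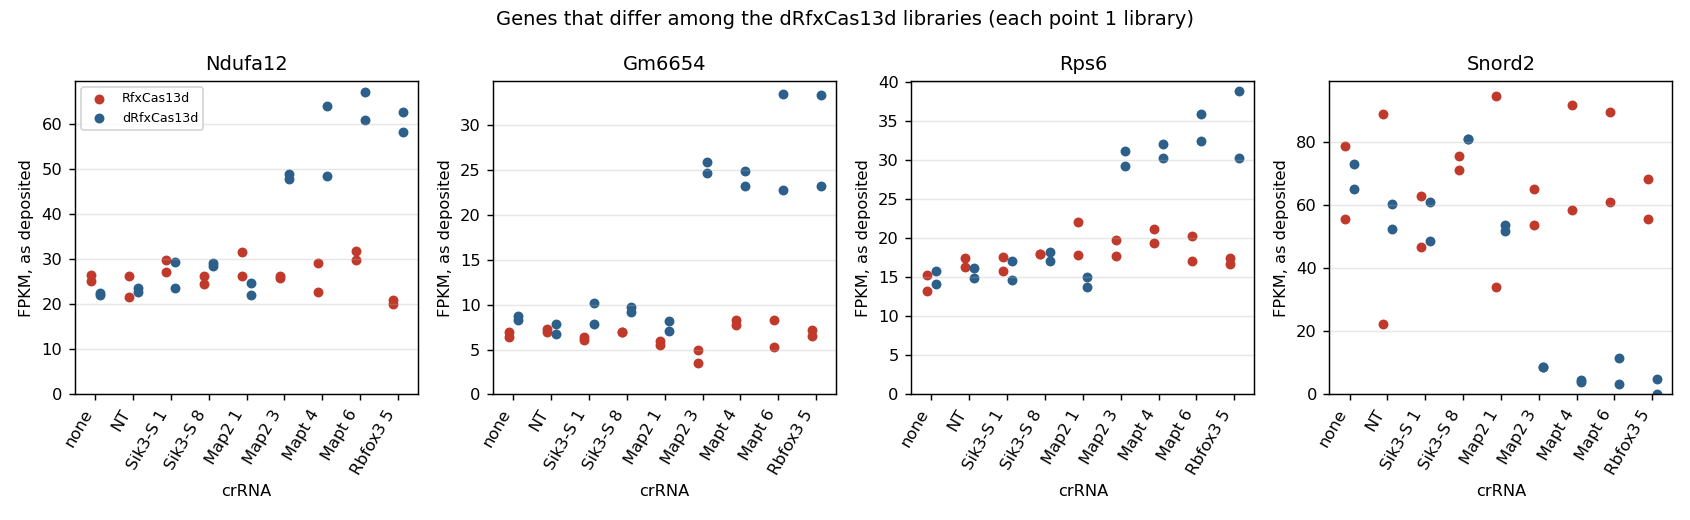
FPKM of Ndufa12, Gm6654, Rps6 and Snord2 in each of the 36 libraries (1 point per library) by crRNA, for RfxCas13d and dRfxCas13d. The dRfxCas13d libraries with Map2 crRNA 3, Mapt crRNA 4, Mapt crRNA 6 and Rbfox3 crRNA 5 stand above the other dRfxCas13d libraries for the first 3 genes (Ndufa12, 48.0 FPKM or more against 29.4 or less) and below them for Snord2.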

How the data were processed

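GFP-positive N2a cells were lysed in TRIzol, and mRNA libraries were sequenced with paired-end reads on an Illumina instrument. The authors used Trim Galore for trimming, Subread for alignment to mm10 and featureCounts for counting, and deposited FPKM to 3 decimals for 25239 genes. Versions of these tools, and the strand setting, were not given in the sources used. FPKM are not counts, so no count model was used.

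FPKM were scaled by median-of-ratios factors, and log2(FPKM + 1) was fitted with limma 3.58.1 (R 4.3.3, Python 3.11.15) as 18 group means over 36 libraries, with an intensity trend and Benjamini-Hochberg adjustment over the 13293 genes with at least 1 FPKM in at least 2 libraries. A call needed an adjusted p under 0.05 and an at least 2-fold change. Printed FPKM are as deposited. The pseudocount of 1 understates the change of low genes. Fragments were estimated from whole multiples of the smallest step in 1644 genes, within a tolerance of 0.1. In simulated data with 200 genes changed 2.5-fold, 199 were recovered for the main comparison with 2 false calls among 13293 genes. The changed genes were taken from better expressed ones, averaging 5 FPKM or more, and the noise did not include fragment counting. Recovery of low genes was therefore not tested. With the filter set at this mean, 45 of the 177 lower and 147 of the 229 higher calls remained.

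Exon length, biotype and transcripts came from GENCODE vM21 (97.9% of symbols matched), and spacers from the study's crRNA table. The comparison, lists and named genes were chosen with earlier results of these data known. The named genes were the 10 protein-coding and 5 other genes with the largest change in each direction among called genes without overlap, the 5 largest differences in each direction per interaction, the calls of the dRfxCas13d comparison, the targets and Rbfox family, and the 4 members of each list with the smallest p, of which not all are printed. Kif27, Ly6g6c, Irf7, Ak7, Rsph9, Exosc6, Lyz2, Atp5e and Atp5mpl, and genes shown for their division among dRfxCas13d libraries, were chosen after their values were seen. Alternatives changed the pseudocount, filter, scaling, libraries, replicate block, exon length trend or variance trend. The 2 that replaced the control group were added after seeing the data.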

Additional observations from a re-analysis of the deposited data

Results flagged for a closer look

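These results are named genes whose change differed between crRNAs by a test of the difference itself, given on the log2(FPKM + 1) scale. Where a gene was at 0 in a group, the value depends on the pseudocount and is no bound on the fold.

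Relative to NT crRNA, the change with Rbfox3 crRNA 5 was more positive for the histone and histone cluster genes H2bu2 (2.21), H4c14 (3.19), H4c9 (1.47), H3c11 (2.18), H4c11 (2.15), H4c2 (1.51) and H1f2 (1.67), for Gm5617 (1.74) and Rps18 (1.12), and for Trappc6a (1.33). It was also more positive for the snoRNAs Snord2 (5.00), Snord42b (3.62), Snord104 (2.84), Snora78 (2.19) and Snord66 (4.24). The hairpin entries Mir3068 (3.30), Mir26b (3.24), Mir7232 (2.87), Mir148a (2.86), Mir1969 (2.60) and Mir6934 (2.49) were more positive too, and these rest on few fragments. Snord2 divided the dRfxCas13d libraries as described above, and so did Mir148a. Mir148a was at 0 in the dRfxCas13d libraries with Rbfox3 crRNA 5, Map2 crRNA 3, Mapt crRNA 4 and Mapt crRNA 6. In the other 10 dRfxCas13d libraries it stood at 2.33 to 7.41 FPKM.

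The change was more negative than with NT crRNA for Ak8 (-1.16), Cfap53 (-1.40), Serpinc1 (-1.88), Lypd6b (-1.06), Tmem236 (-1.36), Hp (-2.48), Fam24a (-2.24), Iqcf5 (-1.11), Ndufa12 (-1.55), Rps6 (-1.08), Gm6654 (-1.85) and Gm7429 (-1.54). Among short RNAs it was more negative for Snord67 (-2.88), Snord83b (-2.65) and Mir7063 (-2.77). Ndufa12, Rps6, Gm6654 and Gm7429 divided the dRfxCas13d libraries as described above. Their RfxCas13d means were 20.5, 17.1, 6.86 and 2.97 FPKM with Rbfox3 crRNA 5. With NT crRNA they were 23.9, 16.9, 7.15 and 4.37 FPKM.

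Relative to the mean of the other 6 targeting crRNAs, the change was more positive for Snord2 (3.02), Snord42b (1.82), Mir7232 (1.77), Mir7-1 (1.70) and Mir669i (1.61). It was more negative for Snord67 (-3.20), Mir3473a (-1.51), 1700013F07Rik (-1.31), Upk1a (-1.25), Gm7429 (-1.14) and Ndufa12 (-1.08). Snord2, Gm7429 and Ndufa12 divided the dRfxCas13d libraries as described above. For Upk1a and 1700013F07Rik the dRfxCas13d+Rbfox3 crRNA 5 libraries lay above all other dRfxCas13d libraries.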

How the results depend on the processing

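For RfxCas13d against dRfxCas13d with Rbfox3 crRNA 5, the 406 calls became 641 (297 higher, 344 lower) and 852 (373, 479) with pseudocounts of 0.5 and 0.1, and 194 (149, 45) when the mean FPKM had to reach 5. Relative to NT crRNA, the 149 calls became 268 with a pseudocount of 0.1 and 73 at a mean of at least 5. Relative to the other 6 targeting crRNAs, 16 became 35 and 8 in the same order, and 0 with the crRNA as the unit. For the dRfxCas13d comparison, 19 became 33 and 52 with pseudocounts of 0.5 and 0.1, 12 at a mean of at least 5, and 0 with only its 4 libraries. The cause was not tested, apart from fewer genes being tested at the higher mean. Leaving out 1 library gave 400 to 469, 119 to 190, 9 to 24 and 20 to 39 calls for these 4 results, and an Rbfox3 difference of -0.0796 to -0.00903 FPKM. Against dRfxCas13d+NT crRNA, Mir148a (-0.53), Mir1969 (-0.43) and Mir26b (-0.74) turned direction, and against dRfxCas13d alone Mir148a (-0.26), Rnu73b (-0.10) and Snord2 (-0.16). Removing the exon length trend turned the split of the NT crRNA interaction from 91 more positive and 58 more negative to 57 and 82. Of 88 named genes called in the main comparison, 44 kept the call under every alternative that tested them.

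Replicate numbers did not pair the samples: the deviations of same-numbered libraries correlated at 0.06 for Rbfox3 crRNA 5. With the replicate number as a block the 4 counts were 408, 151, 16 and 20. Depth limits genes of a few fragments, Rbfox3 and most hairpins among them.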
